A study of Homo sapiens with 3 samples.

Results

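The transcripts of 10 protein kinases that dasatinib binds outside the Src family were followed in H209 cells. The genes were ABL1, ABL2, DDR1, DDR2, KIT, PDGFRA, PDGFRB, EPHA2, EPHB4 and BTK. They were listed by symbol as known dasatinib targets, with earlier results of these data known. All 10 were found among the 60609 genes of the count tables. H209 (NCI-H209) is a human cell line derived from small cell lung cancer, with neuroendocrine features, and the series title sets the work in a study of dasatinib in that cancer. In the sh490 and sh1362 libraries a short hairpin RNA was directed at the Src-family kinase YES1, and in the shGFP library, the control, at GFP, which human cells lack. In all 3 libraries the hairpin was delivered by a lentivirus from the doxycycline-inducible Tet-pLKO-puro plasmid, and the protocol given for every library has doxycycline at 1 µg/mL every 2 days. There was 1 library per hairpin, and neither the time to harvest nor whether the cells were pools or clones is given in the sources used here.

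Dasatinib occupies the ATP pocket of tyrosine kinases. It was developed against the Src family and ABL, and its wider binding takes in receptors of several families. ABL1 and ABL2 are cytoplasmic kinases that act on the actin cytoskeleton and on adhesion. DDR1 and DDR2 are receptors for collagen, KIT is the receptor for stem cell factor, and PDGFRA and PDGFRB bind the platelet-derived growth factors. EPHA2 and EPHB4 are receptors for membrane-bound ephrins on neighbouring cells. BTK relays signals of the B cell receptor and belongs to the Tec family. DDR2 and the PDGF receptors are best known in mesenchymal cells, BTK in blood cells, and KIT in mast cells, blood progenitors and a share of small cell lung cancers.

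Total counts were 7791747 in sh490, 7421552 in sh1362 and 4899006 in shGFP, so the control was the shallowest library. YES1, the targeted gene, had 163 (sh490), 216 (sh1362) and 1465 (shGFP) counts, in the direction of the labels. It was lower in 2 of 2 hairpin libraries by edgeR's quasi-likelihood test (log2 fold -3.60, SE 0.30, Benjamini-Hochberg adjusted p = 0.00761), and among genes at 5 CPM or more alone the adjusted edgeR p was 0.0506. All 10 neuroendocrine markers had reads, with summed levels of 3875, 4850 and 3420 CPM in sh490, sh1362 and shGFP, where CPM is the count scaled to the normalised size of the library. The shGFP library stood apart in red cell transcripts. The 5 red cell genes summed to 18.7 CPM in sh490, 20.4 in sh1362 and 734.9 in shGFP, and 3 of the 4 tested, namely HBB, HBA1 and HBA2, passed the edgeR test as lower with the hairpins. DESeq2 called 3 of them and limma-voom 1. HBA1 and HBA2 are near-identical copies, and reads that align to both would have been left out. The labels do not explain the red cell transcripts in shGFP, and their source was not tested. In bulk RNA, fewer cells of a type and less RNA per cell cannot be told apart. The 7 leukocyte markers summed to 0.504, 2.17 and 8.27 CPM in sh490, sh1362 and shGFP, with ITGAM and CD68 at 0 in every library. Most of the shGFP sum came from S100A9, which had 1, 0 and 20 counts, and CSF1R, which had 2, 4 and 10, both named after their values were seen. S100A8 had 0, 0 and 5 counts, PTPRC had 0, 3 and 2, and LYZ, highest in sh1362, had 1, 9 and 3. Of the 7, 2 (S100A9 and CSF1R) were tested, and 0 passed edgeR, DESeq2 or limma-voom. The filter on low counts kept both only for their shGFP level, where they were high. At an unadjusted edgeR p under 0.05 there was 1 (S100A9), and 4.35% of all genes tested. With no filter on low counts, edgeR called 1 of the 7, and 58 genes in all.

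In the control, DDR1 and ABL1 were the abundant members, and 4 of the 10 lay below 1 TPM (the count divided by summed exon length, scaled to a fixed sum per library). In shGFP the order of the levels was DDR1 at 66.9 TPM, ABL1 at 48.5, KIT at 8.86, ABL2 at 8.20, EPHA2 at 7.37, PDGFRA at 1.07, EPHB4 at 0.729, DDR2 at 0.352, BTK at 0.171 and PDGFRB at 0. The exact 95% counting intervals of DDR1 (62.3 to 71.8 TPM) and ABL1 (44.0 to 53.3 TPM) did not overlap. Those of KIT (6.81 to 11.3), ABL2 (7.03 to 9.51) and EPHA2 (5.24 to 10.1) did overlap, so these neighbours were not ordered at this depth. DDR1 made up 47.1% and ABL1 34.1% of the members' summed TPM in shGFP. The intervals cover counting error only, and the labels name no molecular identifiers that would tell PCR copies apart. TPM uses the exons of all isoforms added together, which lowers the level of a gene with long alternative exons such as ABL2.

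**Figure D1:**
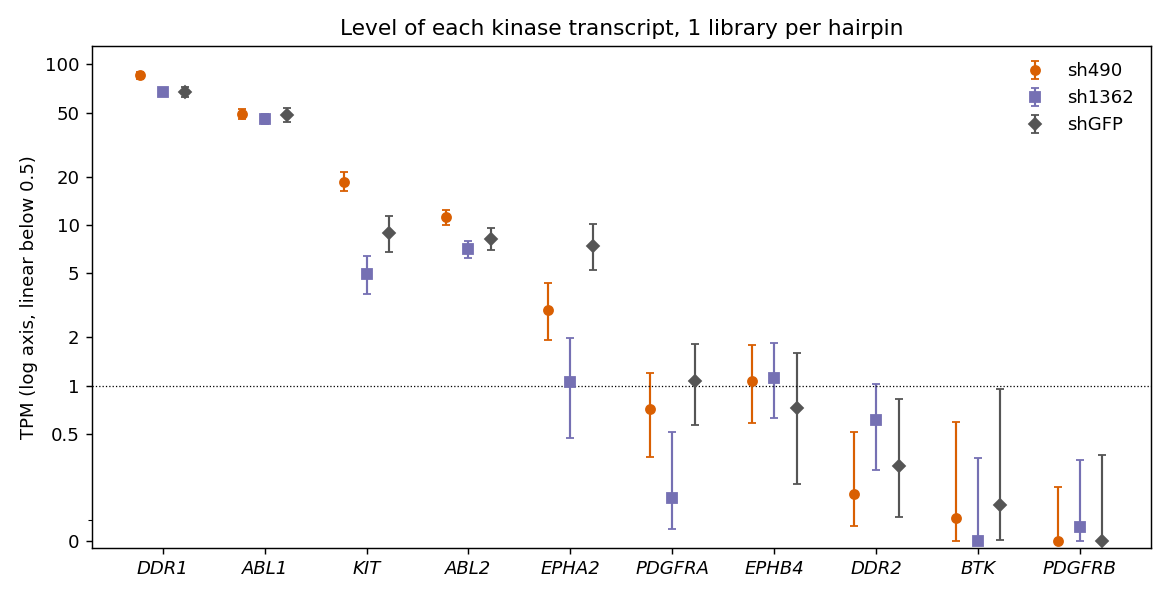
Level of the 10 kinase transcripts in TPM (vertical axis, logarithmic above 0.5 and linear below) in the sh490, sh1362 and shGFP libraries, with exact 95% counting intervals as bars and a dotted line at 1 TPM. DDR1 and ABL1 lay at 45.7 TPM or above in every library, KIT was high in sh490, EPHA2 was high in shGFP, and BTK and PDGFRB lay at or near 0.

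The bases before the transcription start are shown for 4 members that stand for the patterns described below: ABL1, abundant and level, KIT, on opposite sides of the control, EPHA2, low with the hairpins, and PDGFRB, with almost no reads. They were taken from the RefSeq promoter table (GRCh38.p14), in which all 10 members were matched, 4 of them with more than 1 start. Each run is written 5′ to 3′ on the strand of the gene, holds no base of an annotated exon, and has CpG dinucleotides in capitals. The ABL1 start listed there lies inside the span the count tables give for the gene, so other ABL1 transcripts begin upstream of it.
ABL1, chr9:130835004-130835253, plus strand: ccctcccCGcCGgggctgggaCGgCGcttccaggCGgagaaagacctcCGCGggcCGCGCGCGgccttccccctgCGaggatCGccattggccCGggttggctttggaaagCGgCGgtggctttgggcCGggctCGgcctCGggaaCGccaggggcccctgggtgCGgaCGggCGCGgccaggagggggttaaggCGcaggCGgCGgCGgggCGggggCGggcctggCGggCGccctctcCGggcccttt
KIT, chr4:54657707-54657917, plus strand: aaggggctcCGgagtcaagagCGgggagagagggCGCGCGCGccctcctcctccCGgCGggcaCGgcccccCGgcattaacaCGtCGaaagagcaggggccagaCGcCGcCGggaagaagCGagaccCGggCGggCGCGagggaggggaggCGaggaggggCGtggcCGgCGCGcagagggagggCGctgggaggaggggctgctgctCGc
EPHA2, chr1:16156070-16156319, minus strand: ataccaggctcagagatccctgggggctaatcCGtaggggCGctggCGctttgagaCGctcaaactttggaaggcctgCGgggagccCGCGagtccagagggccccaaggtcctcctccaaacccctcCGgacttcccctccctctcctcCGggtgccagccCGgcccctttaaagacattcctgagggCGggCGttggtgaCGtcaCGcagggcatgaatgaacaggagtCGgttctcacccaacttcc
PDGFRB, chr5:150155873-150156095, minus strand: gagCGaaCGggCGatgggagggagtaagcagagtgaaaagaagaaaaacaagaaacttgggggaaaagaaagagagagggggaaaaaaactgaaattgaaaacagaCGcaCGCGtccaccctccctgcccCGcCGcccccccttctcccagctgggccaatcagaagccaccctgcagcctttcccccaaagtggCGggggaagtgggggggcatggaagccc

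Over the full 250 bases before the start, GC content was 78.4% at ABL1, 76.4% at KIT, 63.2% at EPHA2 and 58.4% at PDGFRB, against a median of 58.0% over 35093 promoters of 27305 genes. These windows held 33, 34, 15 and 9 CpGs, against a median of 11. BTK, with 1 read or none in each library, had 24 CpGs in the window of its first listed start, and 21.6% of all promoters had more. That window begins in an annotated exon, and the window of the second listed BTK start had 2 CpGs. The GC box (GGGCGG on either strand), a binding motif of SP1, was matched 2 times at ABL1 and 1 time each at KIT, EPHA2 and PDGFRB, and 42.6% of all these promoters held it. The TATA box (TATAAA on either strand) was not matched in the 4 windows and stood in 10.7% of promoters. These matches describe letters and not bound sites.

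To see how the kinases stood after YES1 silencing, both hairpin libraries were set against shGFP as 2 samples of 1 group. No member passed. With edgeR's quasi-likelihood test, 8 of the 10 members were tested and 0 had a Benjamini-Hochberg adjusted p under 0.05, where 4 of 15708 genes (0.0255%) did. Those 4 were the target YES1 and the haemoglobin genes HBB, HBA1 and HBA2, all at log2 folds of -3.60 or lower. No other gene passed, so the lack of calls does not set the members apart from other genes. DESeq2 and limma-voom also called 0 members. At an unadjusted p under 0.05 there was 1 member, EPHA2, and 4.35% of all genes tested. BTK and PDGFRB were not tested because of their low counts. The labels do not say that the libraries came from separate cultures, so these p-values measure only the spread between the hairpin libraries. That spread was moderated across genes, with 1 residual degree of freedom per gene against a median prior of 7.16. It therefore came mostly from the genes as a whole and less from each gene's own hairpin difference. The fit gives the lone shGFP library the same spread.

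The hairpins were then compared with shGFP one at a time by size, without a test, over the 11634 genes that averaged 5 CPM or more in the 3 libraries. ABL1, ABL2, DDR1 and KIT, 4 of the members, reached that level. In sh490, 1 of the 4 (KIT) was 2-fold or more above shGFP, as were 1.40% of genes, and 0 were as far below, as were 1.42%. KIT lay close to that line, and a prior count of 5 in place of 2 took its log2 fold to 0.99 and the count to 0. In sh1362, 0 were 2-fold above, as were 3.29% of genes, and 0 were 2-fold below, as were 6.0%. For the 4, the median log2 fold was 0.35 (sh490) and -0.07 (sh1362), against 0.00 and -0.01 over the 11634 genes. Both comparisons share the shGFP library.

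**Figure D2:**
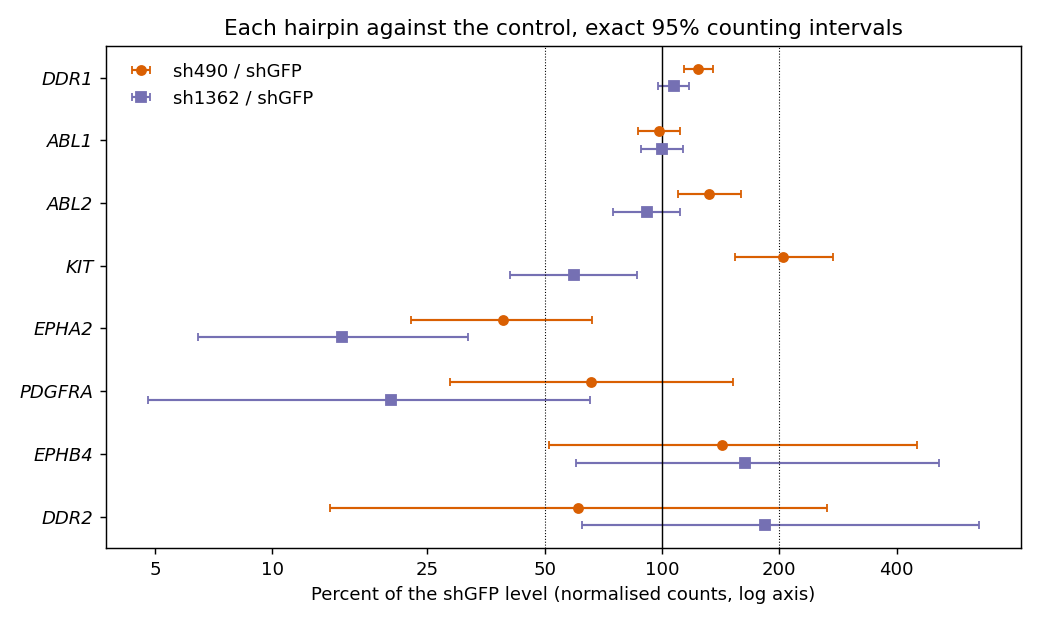
Normalised counts of 8 kinase transcripts in sh490 and sh1362 as a percent of the shGFP level (horizontal logarithmic axis), with exact 95% counting intervals, a solid line at 100% and dotted lines at 50% and 200%. ABL1 stayed at 98.2% and 99.97%, KIT lay at 204.3% with sh490 and 59.3% with sh1362, and EPHA2 at 39.1% and 15.1%.

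Of the ABL kinases, ABL1 was level in the 3 libraries and ABL2 differed between the hairpins. ABL1 (ENSG00000097007.19, chromosome 9, 130713016 to 130887675 on the plus strand of GRCh38) had 700, 664 and 435 counts in sh490, sh1362 and shGFP, or 88.3, 89.9 and 89.9 CPM. The sh490 level was 98.2% of shGFP, with an exact 95% counting interval of 87.0 to 110.9, and the sh1362 level 99.97%, with one of 88.5 to 113.1. The edgeR log2 fold was -0.01 with an SE of 0.28 and did not pass (adjusted p = 0.998). The groups did not differ beyond counting error for ABL1 with either hairpin.

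ABL2 (ENSG00000143322.21, chromosome 1, 179099330 to 179229684 on the minus strand) had 379, 244 and 175 counts in sh490, sh1362 and shGFP, which are 47.8, 33.0 and 36.2 CPM. It stood at 132.1% of shGFP with sh490 (110.2 to 159.0) and at 91.3% with sh1362 (74.9 to 111.5). The sh490 library was the high one, and sh1362 lay within counting error of the control. Set against sh490, ABL2 in sh1362 was at 69.1% (58.6 to 81.4), in libraries without replicates. ABL2 did not pass the edgeR test (log2 fold 0.16, SE 0.35, adjusted p = 0.988). Per length, ABL1 was 4.39, 6.47 and 5.91 times as abundant as ABL2 in sh490, sh1362 and shGFP. The lengths add the exons of all isoforms, 7018 bases for ABL1 and 16689 for ABL2, which lowers the level of ABL2.

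Among 16 listed partners and substrates of ABL, 15 were tested by edgeR and 0 passed. At an unadjusted edgeR p under 0.05 there was 1, and 4.35% of all genes tested. DESeq2 and limma-voom called 0 of them. All 15 averaged 5 CPM or more and 0 of them lay 2-fold from shGFP with either hairpin. Of the 11634 genes at that level, 1.40% were 2-fold higher and 1.42% lower with sh490, and 3.29% and 6.0% with sh1362. The median log2 fold of the 15 was -0.07 (sh490) and -0.05 (sh1362), and the gene under 0.05 was CBL. CBL, a ubiquitin ligase that turns over activated receptors, had 54.5 and 44.7 CPM with sh490 and sh1362 and 85.0 in shGFP (edgeR adjusted p = 0.986, unadjusted p = 0.0276). CTTN, the actin-binding cortactin, had 246.2, 260.8 and 206.5 CPM in sh490, sh1362 and shGFP and did not pass the test.

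The collagen receptors were far apart in level. DDR1 (ENSG00000204580.13, chromosome 6, 30876421 to 30900156 on the plus strand) had 1584 (sh490), 1275 (sh1362) and 780 (shGFP) counts, or 199.8, 172.6 and 161.2 CPM. It ranked 2125th, 2531st and 2749th by TPM among the 60609 genes. The level was 123.9% of shGFP with sh490 (113.6 to 135.2) and 107.1% with sh1362 (97.9 to 117.2), with an edgeR log2 fold of 0.21 and an SE of 0.27 (adjusted p = 0.986). The sh490 value lay above the control by more than counting error. The edgeR test, which also takes the spread between hairpins as moderated across genes, did not call DDR1. The microRNA gene MIR4640 shares 90 exonic bases with DDR1, 0.987% of the length of DDR1, and reads there would have been dropped as ambiguous.

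DDR2 (ENSG00000162733.19, chromosome 1, 162631373 to 162787405 on the plus strand) had 5 (sh490), 14 (sh1362) and 5 (shGFP) counts. These are 0.221, 0.609 and 0.352 TPM, below 1 TPM in every library. The interval of each hairpin relative to shGFP ran from below to above 100%, at 14.0 to 265.1% for sh490 and 62.4 to 650.6% for sh1362, so no difference was detectable at this depth (edgeR adjusted p = 0.997). Of the collagens, COL4A2, a basement membrane chain, had 50.7, 48.1 and 44.2 CPM in sh490, sh1362 and shGFP, and its partner chain COL4A1 had 11.7, 6.77 and 13.6 CPM. COL5A1 had no read in any library. Among the 8 fibroblast and pericyte markers, DCN and FAP were at 0 in every library, and the summed level was 12.9, 13.8 and 12.8 CPM, most of it COL1A1 and RGS5.

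KIT had the largest log2 difference between the hairpins of the 8 members tested. KIT (ENSG00000157404.15, chromosome 4, 54657918 to 54740715 on the plus strand) had 211 (sh490), 57 (sh1362) and 63 (shGFP) counts, which are 26.6, 7.72 and 13.0 CPM. The sh490 library was high, and sh1362 lay below the control. KIT stood at 204.3% of shGFP with sh490 (153.5 to 275.2) and at 59.3% with sh1362 (40.7 to 86.2), log2 folds of 1.01 and -0.73. KIT included, 157 of 11634 genes lay as high or higher with sh490, and 1291 as low or lower with sh1362.

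Set directly against each other, KIT in sh1362 was at 29% of its sh490 level (21.3 to 39.0), a log2 difference of -1.75. Of the 4 members at 5 CPM or more, 0 were 2-fold or more higher with sh1362 than with sh490, as were 2.02% of genes, and 1 (KIT) was as far lower, as were 3.88%. There were 48 genes of 11634 with a difference as low as that of KIT or lower. With 1 library per hairpin this compares libraries, and no test was made. Taken as 1 group, the hairpins gave KIT an edgeR log2 fold of 0.40 with an SE of 0.70 (adjusted p = 0.986).

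KITLG, which encodes stem cell factor, the ligand of KIT, had 178, 119 and 83 counts in sh490, sh1362 and shGFP, or 22.5, 16.1 and 17.2 CPM. Receptor and ligand transcripts were therefore both present in every library. Markers of mast cells, which are known for KIT, summed to 2, 3 and 0 counts in sh490, sh1362 and shGFP, with TPSAB1 and TPSB2 at 0. No exon of another gene overlapped those of KIT.

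The PDGF receptors were at the lower end. PDGFRA (ENSG00000134853.12, chromosome 4, 54229280 to 54298245 on the plus strand) ends 359.7 kb before KIT begins, and had 14 (sh490), 4 (sh1362) and 13 (shGFP) counts. In TPM these are 0.720, 0.202 and 1.07. Its level relative to shGFP was 65.7% with sh490 (28.6 to 151.8) and 20.2% with sh1362 (4.79 to 65.2), and it did not pass the edgeR test (log2 fold -1.20, SE 1.04, adjusted p = 0.986). A gene without a symbol, ENSG00000282278, shares 1533 exonic bases with it, 16.1% of its length, and reads there would have been dropped as ambiguous. The sh1362 library was the low one, and the interval of sh490 includes 100%.

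PDGFRB (ENSG00000113721.14, chromosome 5, 150113839 to 150155872 on the minus strand) had 0 (sh490), 1 (sh1362) and 0 (shGFP) counts. A count of 0 allows up to 3 counts as a one-sided limit, which is 0.378 CPM in sh490 and 0.620 in shGFP, and the two-sided exact 95% interval ends at 3.69 counts. Among the ligands, PDGFB had 14.4, 12.9 and 13.8 CPM in sh490, sh1362 and shGFP, and PDGFD had 28.0, 11.2 and 13.8 CPM. PDGFD, like KIT, was higher in sh490 than in the other libraries, at a log2 fold of 1.00, against -0.29 with sh1362, and it was singled out after its values were seen.

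EPHA2 had the lowest values relative to the control of the 8 members tested, with both hairpins. EPHA2 (ENSG00000142627.13, chromosome 1, 16124337 to 16156069 on the minus strand) had 25 (sh490), 9 (sh1362) and 39 (shGFP) counts, although shGFP was the shallowest library. These are 3.15, 1.22 and 8.06 CPM, or 2.96, 1.05 and 7.37 TPM. Both hairpin libraries lay below the control, sh1362 the lower. EPHA2 stood at 39.1% of shGFP with sh490 (22.7 to 66.3) and at 15.1% with sh1362 (6.44 to 31.7).

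The edgeR log2 fold of EPHA2 was -1.87 with an SE of 0.68, an unadjusted p of 0.0248 and an adjusted p of 0.986, lower in 2 of 2 hairpin libraries, and it failed the correction. There were 307 of 15708 genes with a p as low or lower. EPHA2 averaged under 5 CPM and so was not in the counts by size above. Over all 15708 genes that the edgeR filter kept, a count added after the values were seen, 4.0% were 2-fold or more below shGFP with sh490 and 8.23% with sh1362. On that footing 1 of 8 members (EPHA2) was 2-fold lower with sh490 and 2 (EPHA2 and PDGFRA) with sh1362. Between the hairpins 4 of 8 (KIT, EPHA2, PDGFRA and DDR2) were 2-fold apart either way, where 11.8% of the 15708 genes were. Of these 4, 3 had 39 counts or fewer in every library. The filter keeps a gene that reaches its level in a single library, and DDR2 did so only in sh1362, where it was high. The place of DDR2 among the 4 was therefore partly set by the filter. The red cell and leukocyte sums given above were, like EPHA2, highest in shGFP, and their part in the EPHA2 difference was not tested.

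**Figure D3:**
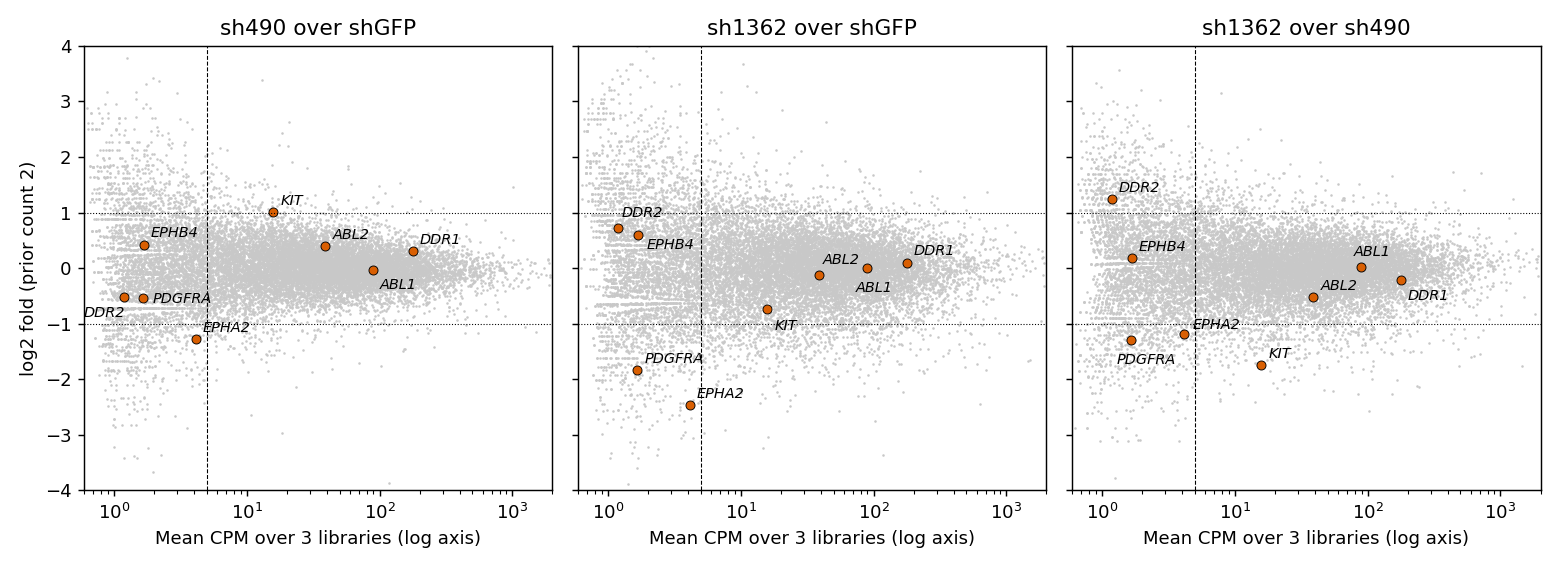
The log2 fold of every gene kept by the edgeR filter (grey) against its mean CPM over the 3 libraries (logarithmic axis), for sh490 over shGFP, sh1362 over shGFP and sh1362 over sh490, with 8 kinases in orange, dotted lines at 2-fold, a dashed line at 5 CPM and genes beyond the axes not drawn. KIT lies at 1.01 with sh490 and -0.73 with sh1362, EPHA2 lies at -1.28 and -2.46, and ABL1 at -0.03 and -0.00, while the grey cloud widens toward low CPM.

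EPHB4 (ENSG00000196411.10, chromosome 7, 100802565 to 100827523 on the minus strand) had 14 (sh490), 15 (sh1362) and 6 (shGFP) counts, or 1.07, 1.12 and 0.729 TPM. Its intervals relative to shGFP, 51.4 to 452.0% for sh490 and 60.0 to 515.1% for sh1362, include 100%, so no difference was detectable (edgeR log2 fold 0.61, SE 0.99, adjusted p = 0.986). It shares 69 exonic bases, 1.07% of its length, with SLC12A9.

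The other Eph receptors gave the setting for these values. Of 12 listed, 8 were tested by edgeR and 0 passed, and DESeq2 and limma-voom called 0. At an unadjusted edgeR p under 0.05 there was 1 (EPHB2), and 4.35% of all genes tested. Among the 7 that averaged 5 CPM or more, 0 lay 2-fold from shGFP in sh490, where 1.40% of genes were higher and 1.42% lower. In sh1362, 2 (EPHA10 and EPHB2) were 2-fold higher, as were 3.29% of the 11634 genes. The median log2 fold of the 7 was 0.47 (sh490) and 0.58 (sh1362). EPHB2, the most abundant, had 24.7, 34.7 and 16.9 TPM in sh490, sh1362 and shGFP, and EPHA7 had 16, 13.6 and 9.64 TPM. EPHA10 had 3.91, 5.15 and 2.21 TPM. On the other side, EPHA6 had 3.04, 3.30 and 5.72 TPM and EPHA4 had 6.37, 4.15 and 8.18 TPM. Of the 7, 4 were higher with both hairpins, 2 (EPHA4 and EPHA6) lower with both, and 1 on opposite sides. By TPM, 8 of the 14 receptors stood above EPHA2 in sh490 and 9 in sh1362, against 3 in shGFP.

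**Figure D4:**
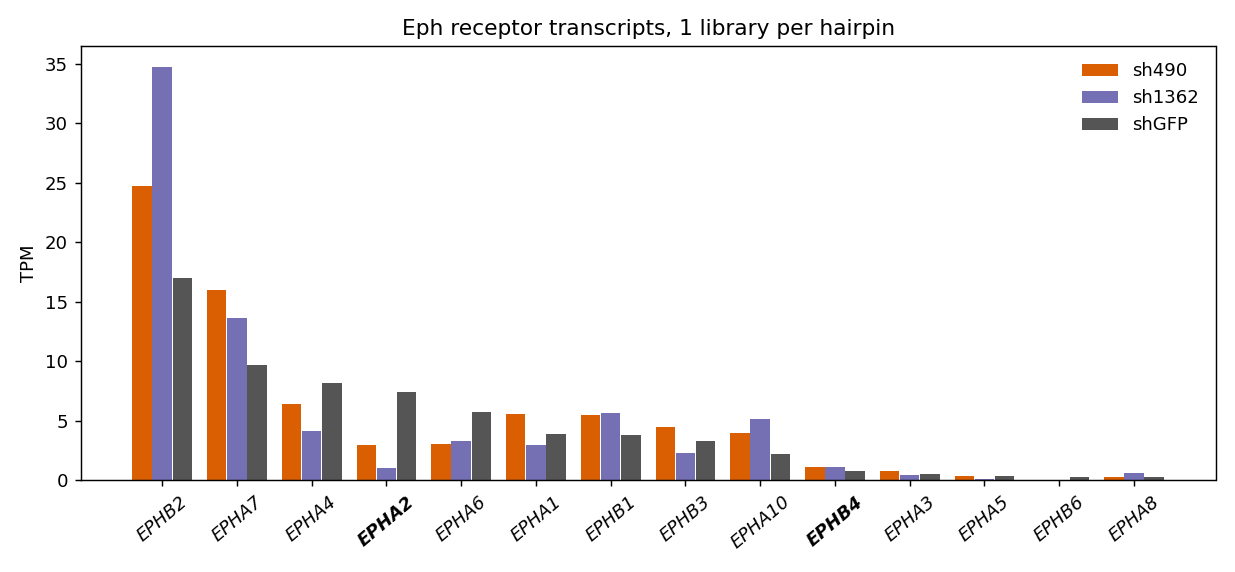
TPM of the 14 Eph receptor transcripts in sh490, sh1362 and shGFP, 1 bar per library, ordered by the shGFP level, with EPHA2 and EPHB4 in bold. EPHB2 is the tallest in every library at 24.7, 34.7 and 16.9 TPM, and EPHA2 is at 2.96, 1.05 and 7.37 TPM.

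Of the ephrins, EFNA1, a ligand of EPHA2, had 20.3 CPM in sh490, 16.1 in sh1362 and 23.8 in shGFP, and EFNA5 had 15.8, 9.88 and 21.7 CPM. EFNB2, the ligand of EPHB4, had 13, 6 and 7 counts. Over the 21 listed ligands of these receptors, 16 were tested by edgeR, 0 passed and 0 had an unadjusted p under 0.05, and DESeq2 and limma-voom called 0. Of the 9 ligands at 5 CPM or more, 1 (PDGFD) was 2-fold higher and 0 lower in sh490, against 1.40% and 1.42% of genes. In sh1362, 1 (COL5A2) was 2-fold higher and 1 (EFNA5) lower, against 3.29% and 6.0% of genes. The median log2 fold of the 9 was 0.05 (sh490) and -0.24 (sh1362).

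BTK (ENSG00000010671.15, chromosome X, 101349447 to 101390796 on the minus strand) had 1 count in sh490, 0 in sh1362 and 1 in shGFP, too few for any comparison. Of the listed Tec family and BTK pathway genes, CD79B, a chain of the B cell receptor, was at 0 in every library, and PRKCB had 2, 0 and 1 counts in sh490, sh1362 and shGFP. The B cell marker list held 1 abundant gene, PAX5, at 21.7, 24.8 and 25.2 CPM, and its other genes had 6 counts or fewer in every library. TEC, a relative of BTK, was present at 42.8 CPM in sh490, 35.7 in sh1362 and 45.7 in shGFP, and SYK, the kinase upstream of BTK in B cells, at 113.1, 112.8 and 102.5 CPM. Of the 13 listed genes 5 were tested and 0 passed edgeR, DESeq2 or limma-voom, with 0 at an unadjusted edgeR p under 0.05. Over the 3 at 5 CPM or more, the median log2 fold was -0.01 (sh490) and -0.35 (sh1362).

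Other kinases reported to bind dasatinib, again outside the Src family, were measured in the same way. Of 18 listed, which include Eph and Tec genes already given, 14 were tested by edgeR and 0 passed, and DESeq2 and limma-voom called 0. At an unadjusted edgeR p under 0.05 there was 1, again EPHB2, and 4.35% of all genes tested. Among the 12 that averaged 5 CPM or more, 0 lay 2-fold from shGFP in sh490, where 1.40% of genes were higher and 1.42% lower. In sh1362, 1 (EPHB2) was 2-fold higher and 0 lower, against 3.29% and 6.0% of genes. The median log2 folds of the 12 were 0.04 (sh490) and 0.01 (sh1362). CSK, which phosphorylates the inhibitory tail tyrosine of Src-family kinases, had 22.6 CPM in sh490, 22.6 in sh1362 and 17.8 in shGFP.

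Adaptors and enzymes that act below these receptors were also read out. Of 23 listed, 21 were tested and 0 passed edgeR, DESeq2 or limma-voom. At an unadjusted edgeR p under 0.05 there were 3 (GAB1, PIK3CA and NCK2), and 4.35% of all genes tested. All 21 averaged 5 CPM or more, and 0 lay 2-fold from shGFP in sh490, where 1.40% of genes were higher and 1.42% lower. In sh1362, 1 (NCK2) was 2-fold higher, as were 3.29% of genes. The median log2 folds of the 21 were 0.03 (sh490) and -0.03 (sh1362). NCK2, an adaptor between receptors and actin, had 80.6 and 118.1 CPM with sh490 and sh1362 and 44.9 in shGFP. PIK3CA, the catalytic subunit of phosphoinositide 3-kinase, had 33.8 and 40.3 CPM with the hairpins and 61.6 in shGFP, and the docking protein GAB1 had 17.1, 13.9 and 28.1 CPM. PTPN6, a tyrosine phosphatase that restrains receptors such as KIT, had 74.4, 77.0 and 50.4 CPM. None of these passed the test, at edgeR adjusted p = 0.986 each.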

How the data were processed

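RNA was measured in 3 libraries of H209 cells, sh490, sh1362 and shGFP, made with a SMARTER mRNA-Seq kit, per the labels' protocols. The deposited values are raw gene counts. Per the file headers, featureCounts 1.6.0 assigned reads to GENCODE version 32 exons with its defaults, which ignore strand and leave out reads that align to several places or overlap several genes. The submitters' processing notes name STAR 2.6.1c, FastQC 0.11.8 and the build GRCh38. Of 60609 gene IDs, 60340 were matched to a symbol. CPM used TMM-scaled totals (edgeR 4.0.16, R 4.3.3) and TPM the tables' exon length. The test was edgeR's robust quasi-likelihood F test over 15708 genes kept by filterByExpr, two-sided, Benjamini-Hochberg adjusted p under 0.05, with 1 residual degree of freedom moderated across genes. Single hairpins were compared by size, on the log2 scale of CPM (prior count 2). Intervals were exact, from Poisson counts or the binomial division of counts of a pair of libraries.

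All 10 members were named. From each list of related genes up to 4 were named, those at 5 CPM or more with the largest smaller fold of the same sign with both hairpins; other listed genes were picked afterwards, by role or because they make up a small count. Not every gene taken by this rule is reported here. Members and lists were chosen with earlier results of these data known. Other scalings, filters, tests, prior counts and thresholds were tried, with DESeq2 1.42.0 and limma 3.58.1.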

Additional observations from a re-analysis of the deposited data

Results flagged for a closer look

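KIT lay on opposite sides of the control with the hairpins, at a log2 fold of 1.01 with sh490 over shGFP and -0.73 with sh1362 over shGFP, and each counting interval left out equality. The difference between the hairpins was not tested, since there was 1 library of each.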

How the results depend on the processing

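No member passed the test under any of the settings run, where the lowest adjusted p was 0.397, for EPHA2 by edgeR with no filter on low counts. Over all genes the number called was 4, but 58 with no filter and 2 by limma-voom, against 3 to 5 under the other settings. Lowering the threshold to 1.5-fold made 1 member (KIT) lower with sh1362 in place of 0. A prior count of 5 left 0 members 2-fold higher with sh490 in place of 1, since KIT moved to a log2 fold of 0.99, an alternative also chosen after the values were seen. Counting over all genes kept by filterByExpr, a choice made after the values were seen, gave 1 lower member with sh490 in place of 0, 2 with sh1362 in place of 0, and 4 apart between the hairpins in place of 1, where 11.8% of 15708 genes were. The 4 were KIT, EPHA2, PDGFRA and DDR2, and DDR2 was kept by the filter only for its sh1362 level.

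Of 50 refits of single genes, the 8 tested members and YES1, 48 kept their direction. ABL1, whose log2 fold was -0.01, changed sign with library totals (0.0139) and with no filter (0.00876). With each hairpin left out in turn, values without a test, the log2 fold ranged from -0.13 to 0.40 for ABL2, from -0.52 to 0.72 for DDR2 and from -0.73 to 1.01 for KIT, so these directions rest on a single hairpin; EPHA2 ranged from -2.46 to -1.28 and PDGFRA from -1.83 to -0.53. YES1 did not pass among genes at 5 CPM or more (log2 fold -3.60, edgeR adjusted p = 0.0506). No paired analysis was possible because shGFP has 1 library, which for the same reason could not be left out. Members with 15 counts or fewer (DDR2, PDGFRA, PDGFRB, EPHB4 and BTK) were too shallow for a difference under several fold to show.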
